A study of Homo sapiens with 16 samples.

Results

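Claudin-4 (CLDN4) had the lowest log2 RNA change of all tested genes in lung-metastatic MDA-LM2 cells, and 9 genes of epithelial junctions, keratin filaments and mesenchymal state were followed to see how much else of the epithelial programme moved with it. They were the tight junction genes CLDN4, OCLN, TJP1 and F11R, the keratins KRT8, KRT18 and KRT19, the mesenchymal filament gene VIM and the repressor ZEB1, taken by symbol from the transcripts of each table. Of the 9, 8 were listed among the 10799 transcripts measured in parental and MDA-LM2 cells and 8 among the 8980 measured in sgControl and sgHNRNPC cells. No listed transcript matched ZEB1, which was not analysed here. The set was chosen by symbol around CLDN4, which was selected on its RNA fall in MDA-LM2 cells, so the values of CLDN4 in that comparison are a description with no test. The other members and the gene lists were also chosen with earlier results of these data known. Their p-values and counts are therefore not independent of that choice.

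The cells were MDA-MB-231, a triple receptor negative human breast cancer line. Parental cells (poorly metastatic) were compared with MDA-LM2, a derivative selected for metastasis to lung, and MDA-MB-231 cells carrying a CRISPR interference guide against the RNA-binding protein HNRNPC (sgHNRNPC) with cells carrying a control guide (sgControl). Each line had 2 RNA libraries and 2 libraries of ribosome-protected footprints (RPF), from cultures in the same serum-containing medium. MDA-LM2 is a single selected derivative. The study's methods describe the sequencing replicates as biological duplicates, and the p-values measure the spread between them. Translation efficiency (TE) is the RPF level over the RNA level of a transcript. Values are normalised read counts, and changes are differences of log2(value + 1) ± SE from limma with 2 libraries per group, called at an adjusted p under 0.05 over all tested genes. On that scale the change of a low gene is understated. A fit that leaves out a library keeps a single one in that line, so its p-values and calls rest on the spread of the other line.

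Claudins, occludin and junctional adhesion molecules span the membrane of tight junctions, which seal the space between epithelial cells, and the scaffold ZO-1 anchors them to actin. Keratins pair as type I and type II chains, so KRT8 forms filaments with KRT18 or KRT19. Cells that lose epithelial character lower junction proteins and keratins and raise vimentin, a change driven by repressors such as ZEB1, SNAI1 and SNAI2 that bind E-box sequences in epithelial promoters. MDA-MB-231 is known as a line of mesenchymal type, rich in vimentin and poor in E-cadherin.

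The markers bore out that description in part. VIM RNA stood at a mean percentile of at least 99.8 among transcripts per length in parental, MDA-LM2, sgControl and sgHNRNPC cells. No transcript of CDH1 (E-cadherin), CDH2 (N-cadherin), TWIST1, ESR1 or PGR was listed in either table, and ERBB2 was listed in both. EPCAM, an epithelial surface protein, was listed at an RNA value of 46.5 and 39.97 in parental cells and 31.9 in both MDA-LM2 libraries, under the filter on RPF values. Every listed transcript had RNA reads in every library, so a gene silent in a single line would not be listed.

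Sequences before the transcription start are shown for the members whose RefSeq start lay within 200 bases of the start of the listed transcript, together with CLDN7, a claudin that also fell, because the promoter is where the E-box repressors act. Each is 250 bases on hg38, ending at the base before the start, from RefSeq. Capitals mark the E-box CACCTG, the GC box GGGCGG and the ETS core AGGAAG on either strand. CLDN4 (chr7:73830746-73830995, plus strand), KRT8 (chr12:52926470-52926719, minus strand), TJP1 (chr15:29969050-29969299, minus strand) and CLDN7 (chr17:7262479-7262728, minus strand) read as follows.
CLDN4: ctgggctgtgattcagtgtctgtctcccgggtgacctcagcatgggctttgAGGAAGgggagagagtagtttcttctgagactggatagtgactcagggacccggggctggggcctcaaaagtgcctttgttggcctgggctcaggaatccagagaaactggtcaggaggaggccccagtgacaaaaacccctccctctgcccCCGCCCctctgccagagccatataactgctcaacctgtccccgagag
KRT8: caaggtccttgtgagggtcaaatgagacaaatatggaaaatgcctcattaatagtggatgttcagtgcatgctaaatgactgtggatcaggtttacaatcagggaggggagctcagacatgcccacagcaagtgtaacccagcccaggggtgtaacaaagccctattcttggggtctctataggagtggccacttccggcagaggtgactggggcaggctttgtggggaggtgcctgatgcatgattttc
TJP1: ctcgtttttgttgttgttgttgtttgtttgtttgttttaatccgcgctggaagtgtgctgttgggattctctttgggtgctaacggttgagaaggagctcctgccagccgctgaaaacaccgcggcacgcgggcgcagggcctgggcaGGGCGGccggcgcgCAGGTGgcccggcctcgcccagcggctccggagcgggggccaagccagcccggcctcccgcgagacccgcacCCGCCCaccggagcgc
CLDN7: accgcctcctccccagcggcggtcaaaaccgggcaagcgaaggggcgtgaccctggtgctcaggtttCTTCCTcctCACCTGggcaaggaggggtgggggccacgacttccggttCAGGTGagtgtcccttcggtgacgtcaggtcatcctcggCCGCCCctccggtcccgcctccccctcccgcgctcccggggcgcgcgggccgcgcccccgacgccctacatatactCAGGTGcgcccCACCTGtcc
In the CLDN4 window the E-box letters were not found, and a GC box lay 47 and an ETS core 199 bases before the start. The KRT8 window held none of the searched motifs. Nor did the window of EHF, an epithelial gene outside the members whose sequence is not shown. Its RNA also fell (log2 change -3.18), and a RefSeq start lay 102 bases from its listed start. The TJP1 window held an E-box at 88 bases and GC boxes at 16 and 102 bases, and the CLDN7 window held 4 E-boxes, at 9, 20, 135 and 174 bases. The windows of other RefSeq entries of TJP1, 146447 to 148241 bases from the listed start, held no E-box. Nor did that of a CLDN7 entry 735 bases from its listed start. Among 35116 RefSeq promoter windows of the same length, 17.5% held an E-box, 42.6% a GC box and 28.7% an ETS core. A match is a description of letters, and no match says nothing of a factor. The study took the isoform with the longest coding sequence per gene, so a listed start need not be the one used in these cells. The listed KRT8 transcript of 1687 bases spans chr12:52897297-52926469, and the KRT8 start used in these cells was not tested. F11R, KRT18 and KRT19 had no entry, and the entries of OCLN and VIM began further from the listed start.

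Of the tight junction members, CLDN4, OCLN and TJP1 had RNA values that did not overlap between parental and MDA-LM2 cells. The RNA values of 62.1% of all tested genes did not overlap either. CLDN4 RNA was 1185 and 1117 in the parental libraries and 51.7 and 43.4 in the MDA-LM2 libraries, 24.2-fold lower. Its RPF value was 105 and 89.7 in parental cells and 6.82 and 6.001 in MDA-LM2 cells, 15.2-fold lower. Both MDA-LM2 libraries lay far below both parental libraries in RNA and in RPF. The log2 RNA change of CLDN4 was -4.57 ± 0.14, the lowest of 8393 genes, and its log2 RPF change of -3.73 ranked 5 from the lowest. The RPF fall was smaller than the RNA fall, with a log2 TE difference of 0.84 ± 0.27, and the RPF to RNA ratio of CLDN4 was 0.0887 and 0.0803 in parental cells against 0.132 and 0.138 in MDA-LM2 cells. With nothing added to the values, the mean RPF to RNA ratio of CLDN4 in MDA-LM2 cells was 1.60 times the parental mean. An added count shrinks the fall of the low RPF values more than that of RNA, and so raises the TE difference. The log2 TE difference of CLDN4 was 1.30 with a pseudocount of 5, and 0.68 when libraries were corrected within bins of transcript GC content.

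OCLN (occludin) had RNA values of 157 and 175 in parental cells and 119 and 133 in MDA-LM2 cells. The log2 RNA change of OCLN was -0.39 ± 0.14 with adjusted p = 0.112 by limma. Footprints of OCLN gave 51.7 and 40.4 in parental and 23.6 and 31.9 in MDA-LM2 libraries, with no overlap. OCLN fell in RPF by 0.71 ± 0.24 on the log2 scale (limma, adjusted p = 0.0423), a call lost with no filter on low values (adjusted p = 0.0558) and with libraries set to equal totals (adjusted p = 0.0594). The call was also lost without parental replicate 1 (adjusted p = 0.283) or MDA-LM2 replicate 1 (adjusted p = 0.276). TJP1 (ZO-1) had RNA values of 455 and 566 in parental cells and 616 and 661 in MDA-LM2 cells. The log2 RNA change of TJP1 was 0.33 ± 0.14 and did not pass by limma (adjusted p = 0.149). Nor did its log2 RPF change of 0.22 ± 0.14 (limma, adjusted p = 0.352). F11R (JAM-A) had overlapping RNA values of 126 and 172 in parental cells and 163 and 130 in MDA-LM2 cells.

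Of the 3 keratins among the members, KRT19 and KRT8 were called lower in RNA and KRT18 was not. KRT19 RNA was 6595 and 6421 in parental cells and 1284 and 1109 in MDA-LM2 cells, so both MDA-LM2 libraries were far below both parental libraries. KRT19 fell in RNA by 2.45 ± 0.12 on the log2 scale (limma, adjusted p = 7.37e-05), rank 21 from the lowest. Its RPF values fell from 535 and 456 to 138 and 106, a log2 change of -2.02 ± 0.12 (limma, adjusted p = 1.15e-14). KRT8 RNA was 10726 and 10292 in parental cells and 5340 and 4892 in MDA-LM2 cells, again with no overlap. KRT8 fell in RNA by 1.04 ± 0.12 on the log2 scale (limma, adjusted p = 0.00237), and its RPF values went from 769 and 708 to 456 and 407 (log2 change -0.77 ± 0.09, limma adjusted p = 1.43e-07).

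KRT18, the usual partner of KRT8, had overlapping RNA values of 2642 and 2990 in parental cells and 2851 and 3079 in MDA-LM2 cells. The log2 RNA change of KRT18 was 0.08 ± 0.12 (limma, adjusted p = 0.699). The RPF values of KRT18 fell from 686 and 676 to 571 and 547, a log2 change of -0.28 ± 0.09 (limma, adjusted p = 0.0289). That call was lost with equal library totals (adjusted p = 0.0804), with quantile normalisation (adjusted p = 0.261) and with GC-binned values (adjusted p = 0.259). It was also lost without parental replicate 1 (adjusted p = 0.139), parental replicate 2 (adjusted p = 0.0908) or MDA-LM2 replicate 2 (adjusted p = 0.161). KRT8 and KRT18 are neighbours on chromosome 12, with the starts of their listed transcripts 22402 bases apart and facing away from each other. Both have processed pseudogenes that can share reads, so their values are uncertain to that degree.

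The ratio of normalised read counts of 2 keratins within a library needs no scaling between libraries, and here it is compared across lines and not read as a ratio of molecules. KRT8 to KRT18 in RNA was 4.06 and 3.44 in parental cells and 1.87 and 1.59 in MDA-LM2 cells. KRT19 to KRT18 in RNA was 2.50 and 2.15 in parental cells and 0.451 and 0.360 in MDA-LM2 cells. In RPF, KRT8 to KRT18 was 1.12 and 1.05 in parental cells and 0.798 and 0.744 in MDA-LM2 cells, a smaller separation than in RNA. None of these ratios overlapped between parental and MDA-LM2 cells, but 2 libraries against 2 cannot give less than p = 0.333 in an exact two-sided permutation test, which was the value for each.

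**Figure D1:**
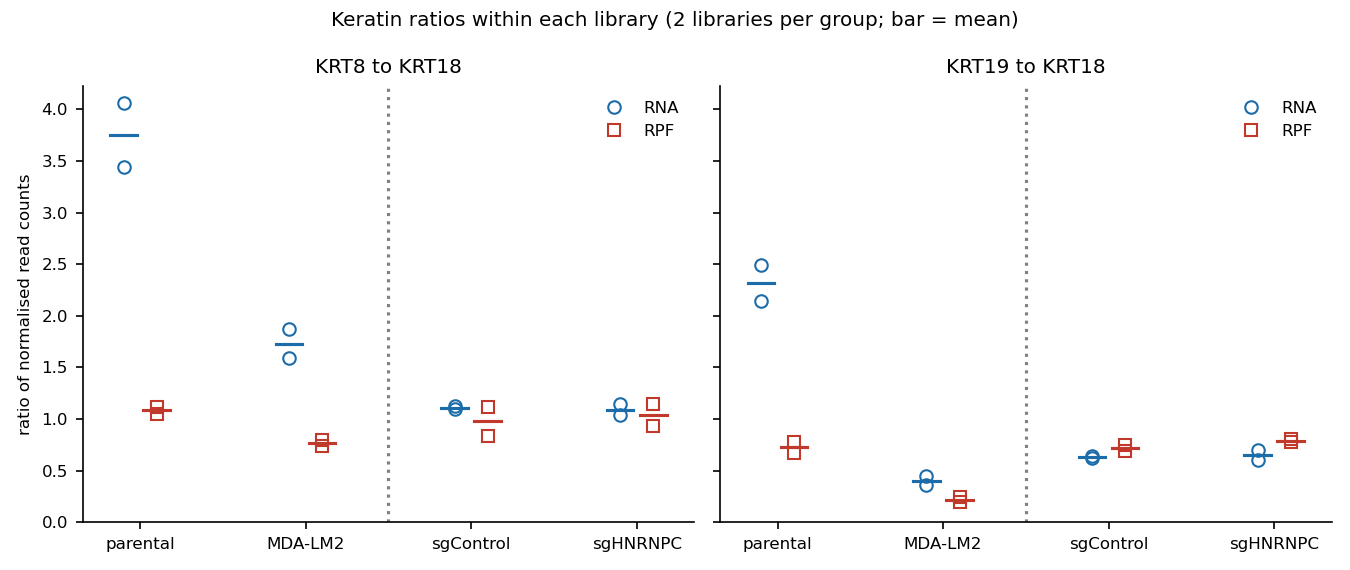
Ratio of normalised read counts of KRT8 to KRT18 (left) and KRT19 to KRT18 (right) in each library, with the 4 lines on the x axis, RNA as blue circles, RPF as red squares and bars at the mean of 2 libraries. In RNA the KRT19 to KRT18 ratio is 2.50 and 2.15 in parental cells and 0.451 and 0.360 in MDA-LM2 cells, while sgControl and sgHNRNPC cells overlap.

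VIM (vimentin) had RNA values of 34813 and 36719 in parental cells and 44870 and 31464 in MDA-LM2 cells. The MDA-LM2 libraries lay on both sides of the parental libraries, and the log2 RNA change of VIM was 0.07 ± 0.20 (limma, adjusted p = 0.832). Without MDA-LM2 replicate 2 the log2 RNA change of VIM was 0.33, and without MDA-LM2 replicate 1 it was -0.18. VIM RPF values were 2140 and 1964 in parental cells and 1845 and 1773 in MDA-LM2 cells, a log2 change of -0.18 ± 0.07 that did not pass by limma (adjusted p = 0.115). The 2 MDA-LM2 RNA libraries differed more than those of the other lines, with a median absolute log2 difference of 0.199 over the 8393 genes against 0.0949 for the parental pair.

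**Figure D2:**
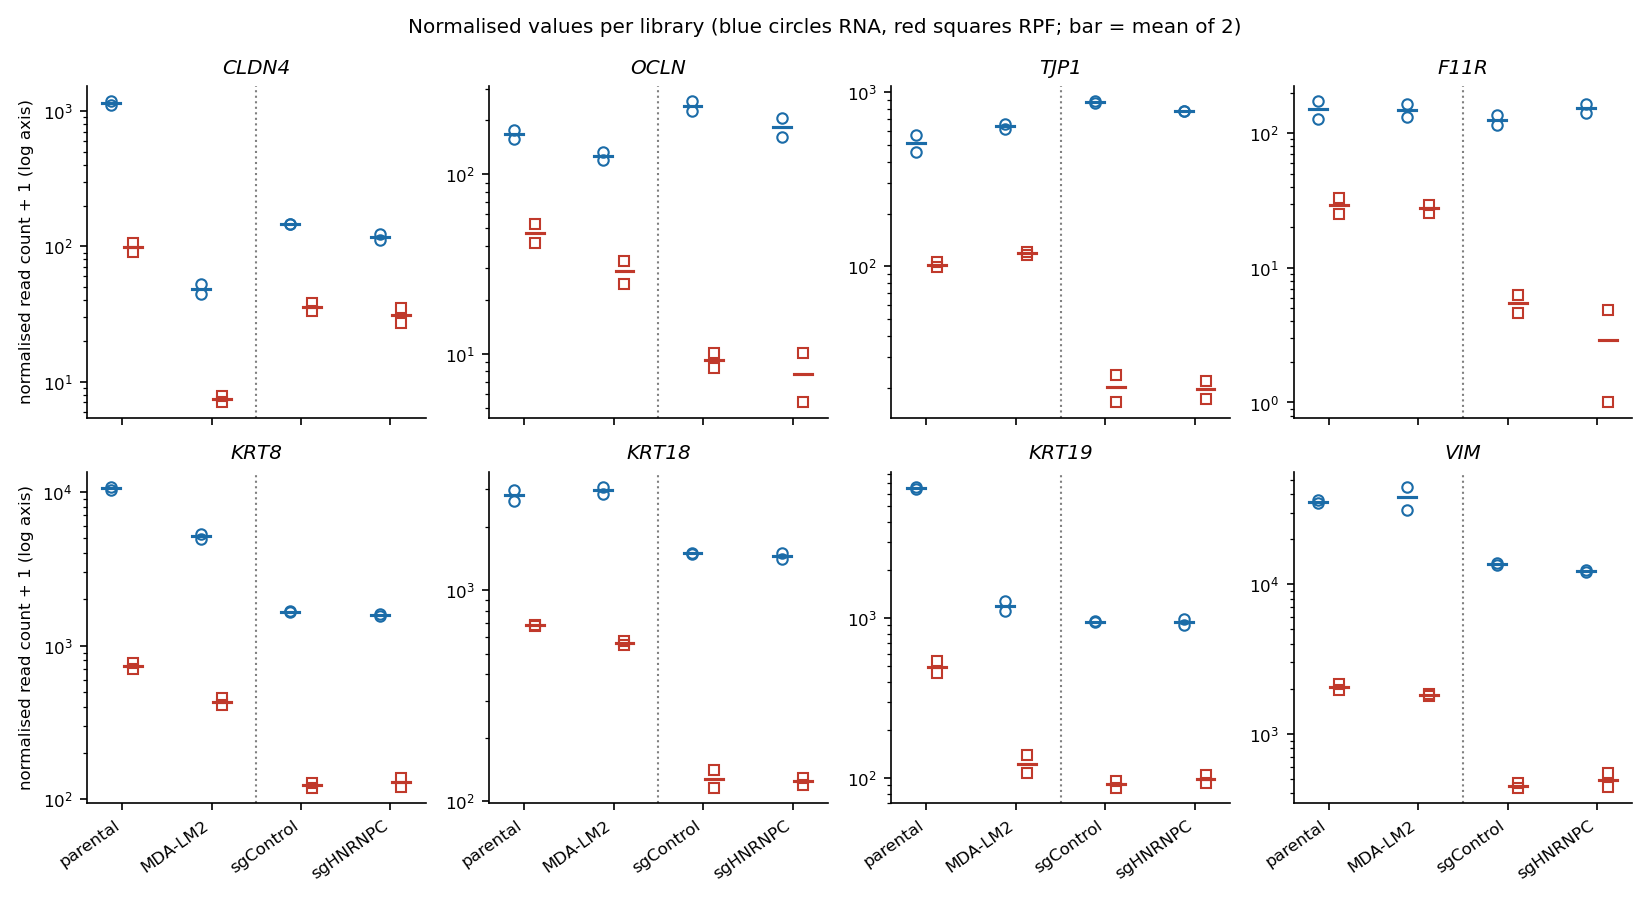
Normalised read count plus 1 on a log axis for 8 members in each library of the 4 lines, with RNA as blue circles, RPF as red squares and bars at the mean of 2 libraries; the dotted line parts tables normalised separately. CLDN4 falls from 1185 and 1117 to 51.7 and 43.4 in RNA between parental and MDA-LM2 cells, while the RNA values of KRT18 and VIM overlap.

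Counting the members other than CLDN4, 2 of 7 were called lower in RNA and none higher, where 15.2% of all tested genes were called (5.8% higher and 9.44% lower). In RPF 4 of 7 were called lower and none higher, where 12% of all tested genes were called (5% higher and 7.03% lower). None of the 7 was called in TE by limma, which called 3 of 8393 genes (0.0357%, of which 0.0238% higher and 0.0119% lower, with 455 genes at an unadjusted p under 0.05). Among the 7, 4 did not overlap between the lines in RNA and 6 in RPF, where 62.1% and 53.3% of tested genes did not. The median log2 RNA change of the 7 was -0.01, beside -0.02 over all tested genes, and the median log2 RPF change was -0.28, beside -0.01. Logistic regression, the study's test, took normalised values as reads and left out the spread between libraries. It called 4 of the 7 in TE, where it called 2.16% of genes. It gave higher TE for KRT8 (log2 0.26) and KRT19 (0.42) and lower TE for KRT18 (-0.36) and VIM (-0.28). The limma adjusted p of the TE of KRT18 was 0.89 and of KRT19 0.903.

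**Figure D3:**
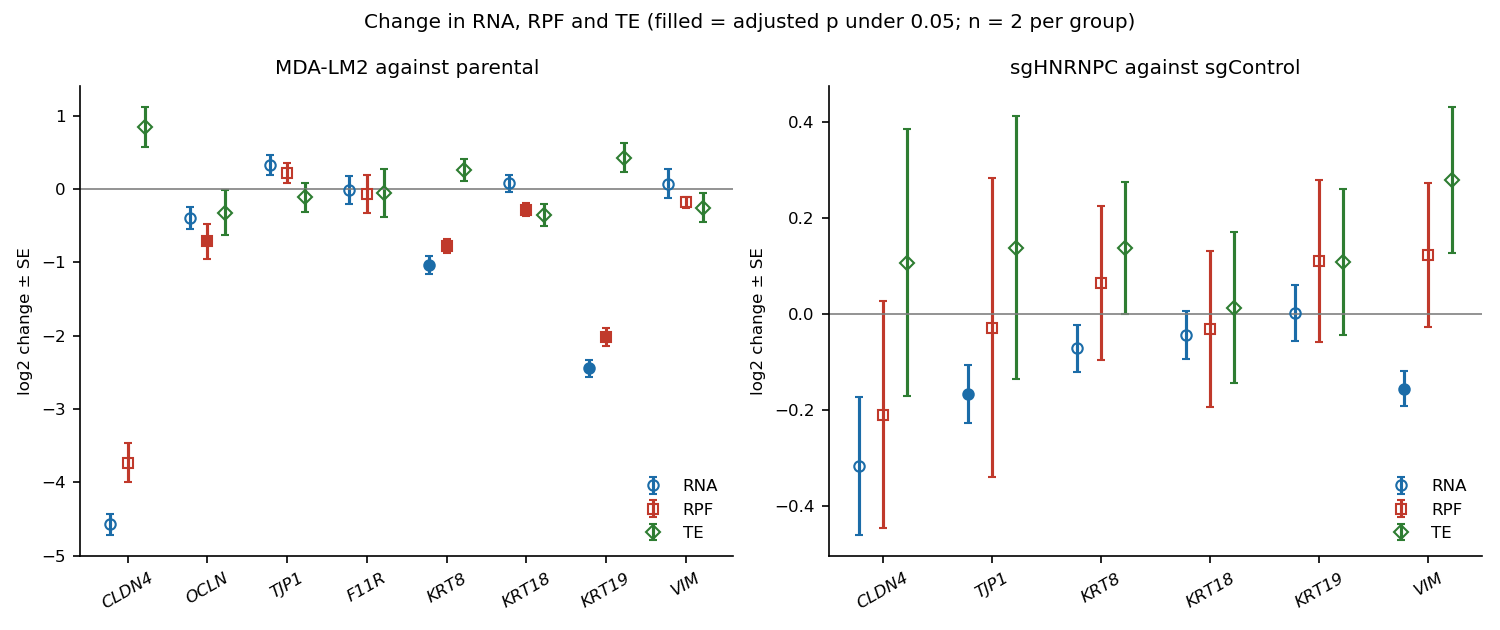
Log2 change ± SE of RNA, RPF and TE for the members tested in MDA-LM2 against parental cells (left) and sgHNRNPC against sgControl cells (right), with 2 libraries per group; filled marks passed at an adjusted p under 0.05, and CLDN4 on the left was not tested. KRT19 fell by 2.45 in RNA and 2.02 in RPF on the left, while all changes on the right are within ± 0.32.

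Beyond the members, most tested keratins were called lower, while junction genes were called in both directions or not at all. Of 21 other keratins on a list of epithelial genes, 7 were listed and 6 tested, and 5 were lower in RNA and in RPF. Of all tested genes, 9.44% were called lower in RNA and 7.03% in RPF. KRT7, a keratin of simple epithelia, fell from 10314 and 9689 to 3118 and 1996 in RNA (log2 change -2.00 ± 0.20, limma adjusted p = 0.00143). KRT81, KRT83 and KRT86, hair keratins of near-identical sequence that may share reads, fell by 1.39, 1.27 and 1.16 on the log2 RNA scale. KRT80, named here after its value was seen, was the other keratin to fall, by 1.08. The median log2 RNA change of the 6 was -1.22, beside -0.02 over all tested genes.

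Of 27 tight junction genes, 17 were listed and 8 tested, and CLDN7 was the 1 called, where 15.2% of all tested genes were called in RNA. CLDN7 RNA fell from 193 and 200 to 76.1 and 58.5 (log2 change -1.54 ± 0.17, limma adjusted p = 0.00206), and its RPF value from 35.5 and 32.02 to 21.4 and 12.01 (adjusted p = 0.0181). The RPF call of CLDN7 was lost without MDA-LM2 replicate 2 (adjusted p = 0.271) or parental replicate 1 (adjusted p = 0.0823). The median log2 RNA change of the 8 was 0.05. Of 25 adherens junction and desmosome genes, 17 were tested, and 4 were lower and 2 higher in RNA. The shares over all tested genes were 9.44% lower and 5.8% higher. Plakoglobin (JUP) fell by 1.06, the plakin PPL by 1.09 and the desmosome plaque protein PKP2 by 0.68 on the log2 RNA scale, and the PKP2 call was lost without parental replicate 1 (adjusted p = 0.056) or 2 (adjusted p = 0.0953). JUP and PKP2 were also called lower in RPF, while the RPF values of PPL overlapped (log2 change -0.33, limma adjusted p = 0.641). Desmoplakin (DSP), which ties desmosomes to intermediate filaments, rose from 399 and 387 to 709 and 976 in RNA (log2 change 1.08 ± 0.16, limma adjusted p = 0.0065). Desmosome genes were thus called in both directions.

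Among epithelial regulator and surface genes, 6 of 25 were tested and 3 were lower. EHF, an epithelial transcription factor of the ETS family, fell from 275 and 264 to 30.1 and 27.5 in RNA (log2 change -3.18 ± 0.16, limma adjusted p = 7.37e-05) and by 2.43 on the log2 RPF scale. SPINT2, a protease inhibitor, and AP1M2, a sorting adaptor of epithelial cells, fell by 0.61 and 0.57 on the log2 RNA scale. Neither call held without either parental library in turn (adjusted p from 0.118 to 0.242), and that of AP1M2 was lost at equal library totals (adjusted p = 0.0534). In RPF, SPINT2 fell by 0.61 on the log2 scale (limma, adjusted p = 0.000419), while AP1M2 had overlapping values and a log2 change of 0.03 (limma, adjusted p = 0.961). Over the 98 genes of the epithelial lists together, 37 were tested, 13 were lower and 2 higher in RNA, and 11 were lower and 4 higher in RPF. Over all tested genes 9.44% were lower and 5.8% higher in RNA, and 7.03% were lower and 5% higher in RPF. With a minimum mean of 50 the RNA count of called genes was 9. That filter also left genes of low RPF value out of testing, CLDN7, PPL and AP1M2 among them, so the counts are not like for like.

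The mesenchymal genes were split. Of 32, 22 were listed and 18 tested, with 4 higher and 2 lower in RNA, where 5.8% of all tested genes were higher and 9.44% lower, and a median log2 change of 0.11. TGFBI, a matrix protein induced by TGF-beta, rose from 389 and 423 to 1220 and 1251 in RNA (log2 change 1.61 ± 0.11, limma adjusted p = 0.00034). TPM1 (tropomyosin) rose by 1.03 and SNAI2 (Slug) by 0.92 in log2 RNA, and SNAI2 had overlapping RPF values of 13.4 and 13.3 in parental and 12.7 and 25.2 in MDA-LM2 cells. CDH11, a cadherin of mesenchymal cells, went the other way, from 860.5 and 804 to 41.3 and 43.4 in RNA (log2 change -4.26 ± 0.13, limma adjusted p = 1.52e-05). ZEB2 RNA was 84.2 and 72.9 in parental cells and 113 and 123 in MDA-LM2 cells (log2 change 0.58 ± 0.16, limma adjusted p = 0.0538). With a minimum mean of 50, which left TPM1 and SNAI2 among others out of testing, the mesenchymal list count was 2. Of the fibroblast markers, 2 of 10 were listed, COL1A1 and COL6A3, with summed RNA values of 138 to 164 in parental cells and 950 to 1319 in MDA-LM2 cells. COL1A1 RNA was 9.97 and 21.0 in parental cells and 580 and 879 in MDA-LM2 cells, while COL1A2, DCN and LUM were not listed. Of the blood and endothelial markers 2 of 8 were listed, CD68 and KDR, with summed RNA values of 338 to 364 and 333 to 567. The part of other cells in these values was not tested.

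**Figure D4:**
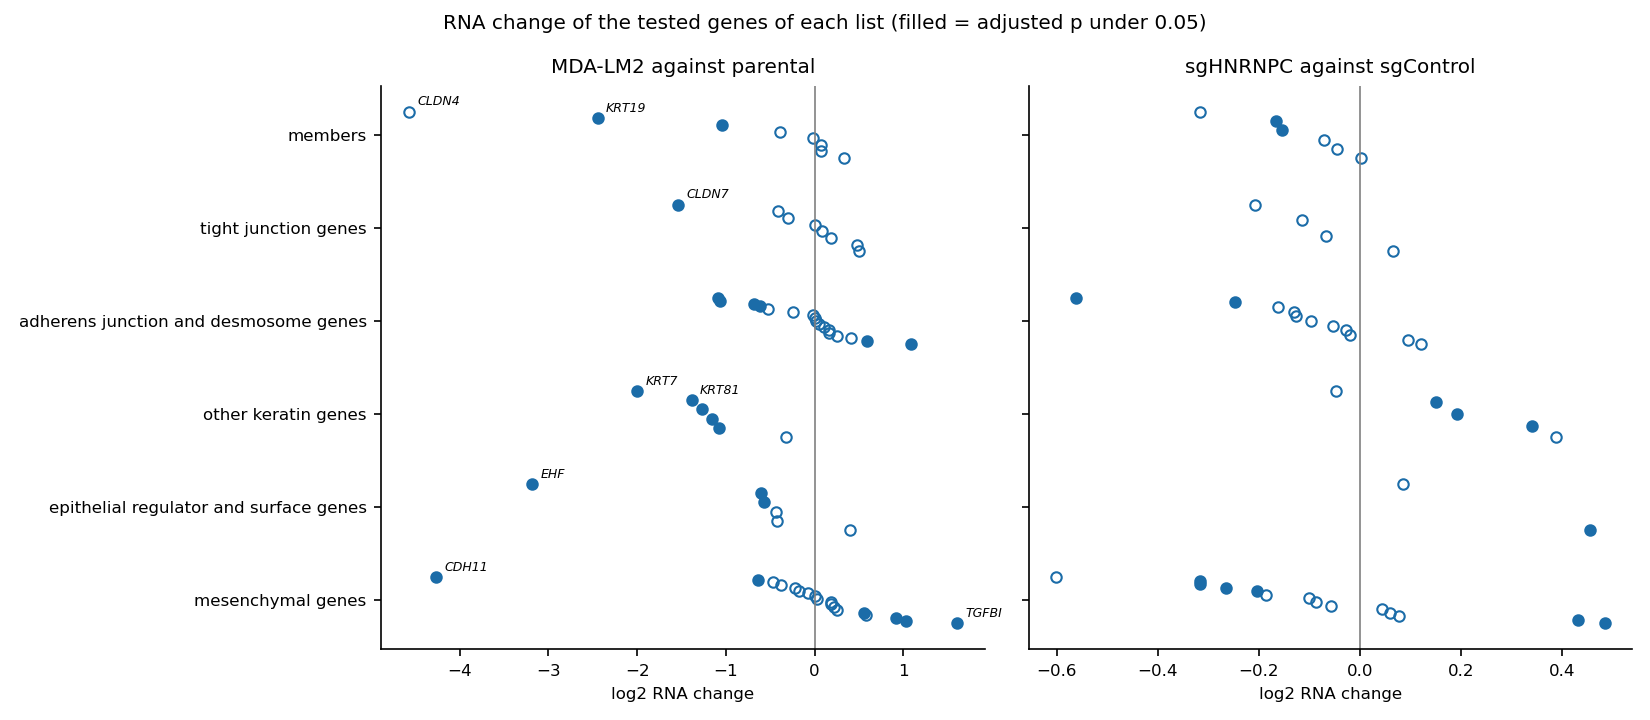
Log2 RNA change (x axis) of each tested gene in 6 gene groups (y axis), for MDA-LM2 against parental cells (left) and sgHNRNPC against sgControl cells (right, narrower scale); filled circles passed at an adjusted p under 0.05, and CLDN4 on the left was not tested. On the left 5 of 6 other keratins were called lower, where 9.44% of all tested genes were, while junction and mesenchymal genes lie on both sides of 0.

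The genes whose pattern lay nearest to that of CLDN4 were CDH11, ATOH8, SPDEF, C4BPB and MXRA8. Nearness was the Euclidean distance over the 8 libraries of the parental and MDA-LM2 table, of log2 values centred within RNA and within RPF, and it ran from 0.704 for CDH11 to 1.60 for MXRA8. SPDEF, a transcription factor of luminal and secretory epithelium, had RNA values of 732 and 670 in parental cells and 47.9 and 36.4 in MDA-LM2 cells.

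Transcript GC content moved with the RNA changes. Across 8215 genes, which are not independent replicates, the log2 RNA change in MDA-LM2 cells had a Pearson r of -0.27 with the GC content of the listed transcript. CLDN4 (60.8% GC), KRT19 (61.8%) and KRT8 (60.2%) are GC-rich beside a median of 48.1%, and so is KRT18 (58.5%). With libraries corrected in 20 GC bins, CLDN4 had a log2 RNA change of -4.30, KRT19 -2.27 and KRT8 -0.77, with both keratins still called (adjusted p = 8.61e-06 and 0.00174 by limma). OCLN (39.9% GC) was then called lower in RNA (log2 change -0.50, adjusted p = 0.0365).

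Levels per length show where each member stood. The RNA value per kilobase of transcript per 1000000 normalised counts of the library was highest for VIM in parental cells (2320 ± 115, SD, n = 2), followed by KRT8 (754 ± 13.1), KRT19 (567 ± 3.96), KRT18 (240 ± 23.8) and CLDN4 (82.2 ± 2.45). TJP1 (8.81 ± 1.45), F11R (3.90 ± 0.89) and OCLN (3.13 ± 0.27) were lowest, and F11R and OCLN lay within their spread of each other. In MDA-LM2 cells KRT18 (285 ± 33.2) stood above KRT19 (117 ± 4.86), and CLDN4 (3.81 ± 0.23) stood below TJP1 (12.4 ± 1.39), near F11R (4.30 ± 0.42). CLDN4 went from percentile 91.5 of 10562 transcripts in parental RNA to 22.4 in MDA-LM2 RNA, and KRT19 from percentile 98.8 to 94.3. RPF per kilobase of coding sequence put CLDN4 at percentile 92.2 and 32.5.

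In sgHNRNPC cells the targeted gene was lower in RNA, and the log2 RNA changes of the tested members were smaller than that of HNRNPC. HNRNPC RNA was 2162 and 2146 in sgControl cells and 1147 and 1183 in sgHNRNPC cells (log2 change -0.89 ± 0.05, limma adjusted p = 5.14e-28). HNRNPC RPF was 73.4 and 111 against 54.4 and 67.0, a log2 change of -0.57 ± 0.19 that was not called (limma, adjusted p = 0.467). Of 8 listed members 6 passed the filter, and 2 were called lower in RNA and none higher, where 16% of all tested genes were called (4.72% higher and 11.3% lower). VIM RNA fell from 13936 and 13449 to 12457 and 12132, a log2 change of -0.16 ± 0.04 (limma, adjusted p = 0.00124). TJP1 RNA fell from 868 and 891 to 784 and 783, a log2 change of -0.17 ± 0.06 (limma, adjusted p = 0.0453). The TJP1 call was lost without any single library in turn (adjusted p from 0.0872 to 0.184) and with quantile normalisation (adjusted p = 0.15), and the VIM call without sgControl replicate 1 (adjusted p = 0.098) or sgHNRNPC replicate 2 (adjusted p = 0.0543).

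CLDN4 RNA was 144 and 145 in sgControl cells and 122 and 110 in sgHNRNPC cells, with no overlap, where the RNA values of 54.8% of tested genes did not overlap. The log2 RNA change of CLDN4 was -0.32 ± 0.14 (limma, adjusted p = 0.126), and its RPF values of 37.1 and 32.1 against 26.1 and 33.8 overlapped, where 37.9% of tested genes did not. KRT8, KRT18 and KRT19 had log2 RNA changes of -0.07 ± 0.05, -0.04 ± 0.05 and 0.00 ± 0.06, none of them called. OCLN RNA was 255 and 226 against 204 and 161, and F11R RNA 114 and 136 against 140 and 163, both under the RPF filter and not tested. No member was called in RPF, where limma called 1 gene of 4283 (0.0233%), or in TE, where it called none (0%, with 332 genes at an unadjusted p under 0.05). Logistic regression called 0.257% of genes in TE, VIM among them (log2 0.29). The median SE of a log2 RPF change was 0.29 in these libraries against 0.22 in the parental and MDA-LM2 libraries, so small RPF changes were not detectable.

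Keratins other than the members rose where they were called. Of 6 listed, 5 were tested and 3 were higher in RNA, KRT81 (420 and 420 against 524 and 540, log2 change 0.34 ± 0.08, limma adjusted p = 0.000658), KRT80 (0.19) and KRT7 (0.15). The KRT80 and KRT7 calls were lost with equal library totals (adjusted p = 0.0655 and 0.0782), the KRT80 call without any single library (adjusted p from 0.0896 to 0.215), and the KRT7 call without sgControl replicate 2 (adjusted p = 0.23) or sgHNRNPC replicate 1 (adjusted p = 0.298). EHF RNA rose from 219 and 185 to 281 and 273 (log2 change 0.46 ± 0.11, limma adjusted p = 0.00139), and JUP fell by 0.56. The EHF call was lost without sgControl replicate 2 (adjusted p = 0.0562) and the JUP call without sgHNRNPC replicate 1 (adjusted p = 0.0551). NECTIN3, a nectin of adherens junctions, fell by 0.25 (limma, adjusted p = 0.026), a call lost without sgControl replicate 1 (adjusted p = 0.178) or sgHNRNPC replicate 2 (adjusted p = 0.406) and with quantile normalisation (adjusted p = 0.0838) or GC bins (adjusted p = 0.0708). Over the epithelial lists 22 genes were tested, with 4 higher and 2 lower, where 4.72% of all tested genes were higher and 11.3% lower. Of 14 tested mesenchymal genes 2 were higher, TGFBI by 0.48 and TGFBR1 by 0.43, and 4 were lower, TGFB2 by 0.32 among them. CD68, the 1 listed blood and endothelial marker of 8, had summed RNA values of 724 to 751 in sgControl cells and 887 to 1016 in sgHNRNPC cells (limma, adjusted p = 3.83e-06), and its part in these values was not tested. COL6A3 was the 1 listed fibroblast marker of 10.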

How the data were processed

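RNA and RPF libraries of 4 lines (2 of each per line, 16 in all) were grouped by their titles. Per transcript, the authors deposited a normalised signal: per the study's methods, the authors aligned reads with Bowtie2 to a single mRNA per gene, counted them and scaled the counts by median-of-ratios size factors within each kind of library. The submitters' processing notes name cutadapt 2.3, Bowtie2 2.3.5, UMI-tools, SAMtools and hg38. It is not stated whether RPF values were corrected for ribosome stalling, so their depth in reads is unknown. The logistic regression took normalised values as reads, so its p-values depend on that unknown depth. RNA values are whole multiples of a step per library, equal to 5141959 to 8193031 reads per library, but no count test was run. RPF totals were 158011 to 679726 normalised counts. The 2 tables were normalised separately and were not tested against each other.

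Identifiers were matched to GENCODE version 44 (97.9% of each table). Genes with a mean of at least 10 in RNA and in RPF were tested on log2(value + 1) by limma 3.58.1 in R 4.3.3 with a trend, RNA and RPF each within 4 libraries and TE as the interaction over 8, two-sided, with Benjamini-Hochberg adjustment. The fits were tested on simulated data. Levels, ratios and figures used Python 3.11.15 with pandas 2.3.3, numpy 2.4.6 and matplotlib 3.10.9. RNA was set per kilobase of transcript and RPF per kilobase of coding sequence. Named list genes were up to 4 per list with the largest RNA change among those called with a mean of at least 50 and no overlap. A further gene that met this rule is not reported here. The members and lists were chosen with earlier results of these data known. Alternatives were other pseudocounts (0.5 and 5), filters (none, 50), scalings, a replicate block, robust moderation, leaving out each library, logistic regression and a correction in 20 GC bins, the last chosen after seeing the data.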

Additional observations from a re-analysis of the deposited data

How the results depend on the processing

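The direction and call of KRT19 and KRT8 in RNA and RPF in MDA-LM2 cells held under every alternative run. Counts of called genes moved as follows. A fit without a library has a single library in that line and takes its spread from the other line, so its counts are not like for like. A minimum mean of 50 tests fewer genes, so counts under it are not like for like either. For members in RNA in MDA-LM2 cells the count was 2, and 2 to 5 over fits that left out a library. For members in RPF it was 4, with 2 at equal library totals and 2 to 3 with a library left out. Logistic regression called 4 members in TE in MDA-LM2 cells and 1 in sgHNRNPC cells, where limma called 0. The epithelial lists gave 15 calls in RNA in MDA-LM2 cells, 9 with a minimum mean of 50 and 10 to 24 with a library left out, and the mesenchymal list 6, 2 and 4 to 11. In sgHNRNPC cells, members in RNA gave 2 calls, 1 with a minimum mean of 50, 0 with quantile normalisation, 1 with GC bins and 0 to 1 with a library left out. The epithelial lists gave 6, 2 with a minimum mean of 50 and 3 to 5 with a library left out, and the mesenchymal list 6, 3 and 5 to 6.

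Signs turned for values that were not called. In MDA-LM2 cells these were F11R RNA (0.16 at equal totals) and AP1M2 RPF (-0.027 with GC bins). In sgHNRNPC cells they were KRT19 RNA (-0.016 at equal totals), VIM RPF and TE (both -0.037 with quantile normalisation), KRT18 TE (-0.10 with quantile normalisation, -0.12 with GC bins) and TGFB2 RPF (0.019 with GC bins). With a library left out, log2 RNA changes in MDA-LM2 cells ran from -0.23 to 0.21 for F11R, -0.013 to 0.17 for KRT18 and -0.18 to 0.33 for VIM. Their RPF changes ran from -0.27 to 0.13 for F11R, -0.82 to 0.16 for PPL, -0.065 to 0.13 for AP1M2 and -0.066 to 0.87 for SNAI2, and the TE change from -0.48 to 0.37 for F11R. In sgHNRNPC cells RNA changes ran from -0.091 to 0.0026 for KRT18 and -0.057 to 0.060 for KRT19. RPF changes there ran from -0.30 to 0.24 for TJP1, -0.026 to 0.16 for KRT8, -0.17 to 0.11 for KRT18, -0.031 to 0.28 for VIM, -0.73 to 0.12 for NECTIN3, -0.12 to 0.31 for EHF and -0.28 to 0.25 for TGFB2. TE changes there ran from -0.15 to 0.36 for CLDN4, -0.15 to 0.42 for TJP1 and -0.13 to 0.16 for KRT18. The cause was not tested.

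With the replicate number as a block, VIM in RPF in MDA-LM2 cells was called (-0.18, adjusted p = 0.000547 by limma), the member count in RPF was 5, and no other call of a named gene changed. The numbers were not shown to pair the libraries: the differences between replicates 1 and 2 correlated across genes between parental and MDA-LM2 cells with r = 0.234 in RNA and 0.044 in RPF, and no label ties the numbers. The count test on recovered reads was not run, and unknown RPF depth limits what a small RPF change can show.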

Other observations

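CLDN4 stood at different levels in the parental and the sgControl cells, both of MDA-MB-231 origin. Per the study's methods, cells with guides came from sorted cells expressing dCas9-KRAB and were drug-selected after guide delivery. The part of these steps in the values was not tested. The RNA value per kilobase per 1000000 normalised counts was 82.2 ± 2.45 (SD, n = 2) in parental and 15.7 ± 0.13 in sgControl cells, and the RPF value per kilobase of coding sequence per 1000000 was 229 ± 24.4 and 343 ± 44.6. TE was set relative to a median per library over the genes above a floor in RNA and in RPF. That median covered 8151 genes in parental, 8176 in MDA-LM2, 4207 in sgControl and 4220 in sgHNRNPC cells, so the baseline differs between the tables. On that scale the TE of CLDN4 was 0.935 and 0.840 in parental cells, 1.36 and 1.40 in MDA-LM2 cells, 6.64 and 5.57 in sgControl cells and 5.36 and 7.36 in sgHNRNPC cells. TJP1 differed the other way, at 1.05 and 0.902 in parental and 0.317 and 0.203 in sgControl cells. KRT18 was at 1.11 and 0.964 in parental and 0.803 and 0.956 in sgControl cells. The KRT8 to KRT18 RNA ratio was 1.12 and 1.10 in sgControl and 1.15 and 1.04 in sgHNRNPC cells, below the 4.06 and 3.44 of parental cells. The tables were normalised separately and list different transcripts, so these values are set side by side with no test.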
